A study of Drosophila melanogaster with 12 samples.

Results

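Silencing of barc was compared with a control in neural stem cells of the larval fly brain, in 4 of the 12 RNA sequencing libraries of the series. There were 2 libraries of barc RNAi neuroblasts and 2 of control neuroblasts (RNAi, RNA interference), and all 14210 genes of each library's table were considered. Parents carrying dicer2 with asense-Gal4, UAS-CD8::GFP were crossed either to a barc RNAi line (VDRC TID 107013) or to VIE-260B, the landing site without a construct (VDRC TID 60100), and the progeny of both crosses were raised at 29 °C. Both groups therefore share the dicer2 and GFP transgenes, the Gal4 driver of type I neuroblasts and the warm rearing, and they differ in the RNAi construct. Brains of late L3 larvae were dissected, type I neuroblasts were sorted by fluorescence, and polyadenylated RNA was made by hand into strand-specific libraries (dUTP method, KAPA kit). The knockdown rests on 1 RNAi line, and the labels give neither the sex nor the number of larvae per pool. They also do not say whether the 2 libraries of a group came from separate cohorts, so p-values measure only the spread between these libraries.

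Neuroblasts are the stem cells of the fly central nervous system. They divide asymmetrically, renewing themselves while giving off smaller daughters that become neurons or glia, and they grow back to size between divisions, which calls for high ribosome and energy output. Barricade, the product of barc, is the fly counterpart of the human splicing-associated protein Tat-SF1.

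Expression was measured as FPKM, fragments per kilobase of transcript and 1000000 mapped fragments, as deposited by the authors. Of the 14210 genes, 84 had a status other than OK in at least 1 library, 3215 were listed at 0 in all 4 libraries, 4179 had a mean above 0 but under 1 FPKM, and the remaining 6732 were tested. Just inside the limit of 1 FPKM lay CG30062 (mean 1.00 FPKM), and just outside it lay CG2217 (0.997 FPKM) and CG33509 (0.994 FPKM). A gene was called when limma on log2(FPKM + 1) gave a Benjamini-Hochberg adjusted p under 0.05 over the 6732 genes. All changes below are differences of log2(FPKM + 1), barc RNAi minus control, with their standard error (SE), which understate the change of genes near 1 FPKM. The targeted transcript itself, barc (arm 3L, 21413483 to 21426267), had 15.1 and 17.9 FPKM in the RNAi libraries, against 86.4 and 94.03 FPKM in the controls (-2.39 ± 0.083, adjusted p = 5.89e-07). The deposited confidence intervals implied 48.7 and 42.01 M fragments (M, 1000000) in the RNAi libraries, against 30.4 and 27.1 M in the controls. Fewer expressing cells in the sorted pool and less RNA per cell cannot be told apart in such bulk libraries.

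The sorted cells carried neuroblast markers in both groups, with small changes in some. Of the 9 neuroblast genes klu (0.16) was called higher and dpn (-0.37) and insc (-0.27) lower. All 9 listed neuroblast genes were expressed, with summed levels of 1778 and 1766 FPKM in the RNAi libraries, against 1863 and 1911 FPKM in the controls, while the glial factor gene repo lay between 0.0676 and 0.224 FPKM and the hemocyte gene Hml between 0.0619 and 0.245 FPKM in the 4 libraries. Neuronal markers were low but moved: 5 of 12 listed were tested and 3 rose (elav, fne and cac; 19.1% of all tested genes were called higher and 23.8% lower), and the list summed to 52.8 and 51.9 FPKM after barc RNAi, against 38.3 and 39.9 FPKM in controls. The call of elav was lost in a fit that shared the spread with the S2 cell groups of the series (adjusted p = 0.835). Those of fne and cac held. The S2 groups are other cells, prepared with another kit, so a call lost in that fit also reflects spread among S2 libraries. The synaptic gene brp stayed between 0.0722 and 0.159 FPKM in the 4 libraries. Of 5 tested genes of the type II lineage list erm (-0.43) and tll were called lower and fd59A (0.52) higher. The calls of erm and tll held in that shared fit. Those of klu, dpn, insc and fd59A did not (limma adjusted p between 0.0586 and 0.965). The erm call was lost without control replicate 2 (change -0.32) and that of fd59A without control replicate 1 (0.42). The klu call was lost without RNAi replicate 1 (0.12), control replicate 1 (0.18) or control replicate 2 (0.15). Glial markers summed to 151.4 and 161.9 FPKM after barc RNAi and 223.0 and 226.5 FPKM in controls, with Eaat1 and nrv2 lower and loco higher among the 4 tested of 11. All 3 of these calls were lost in that shared fit (adjusted p = 0.176, 0.264 and 0.819), and that of loco also without RNAi replicate 1, without either control (adjusted p between 0.0598 and 0.0802) and in the authors' deposited table (0.11, adjusted p = 0.304). Hemocyte markers summed to 32.4 and 34.9 FPKM after barc RNAi and 39.5 and 40.1 FPKM in controls, with both tested of 9, Sr-CI and crq, lower. Both calls were lost in the shared fit (adjusted p = 0.563 and 0.615), and that of crq also after rescaling each library to 1000000 (adjusted p = 0.25), under quantile normalisation (adjusted p = 0.0885) and without RNAi replicate 1 or either control (adjusted p between 0.135 and 0.223). The part of such admixture in the changes below was not tested.

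Transcripts that the genotype itself touches also differed. Dcr-2, which the dicer2 transgene encodes, had 272 and 316 FPKM in the RNAi libraries, against 438 and 473 FPKM in the controls (-0.63 ± 0.075, adjusted p = 3.27e-04). The eye colour gene w, a common transgene marker, had 247 and 278 FPKM in the RNAi libraries, against 93.2 and 88.6 FPKM in the controls (1.52 ± 0.065, adjusted p = 1.40e-06). Dcr-2 was thus lower and w higher in both RNAi libraries, and whether these differences stem from the transgenes was not tested. The gene tio, which lies close to a known insertion site of such RNAi lines, had 0.678 and 0.603 FPKM in the RNAi libraries, against 0.426 and 0.284 FPKM in the controls, under the limit for testing; the authors' deposited table calls it higher (1.00, adjusted p = 0.00607). The Dcr-2 call was lost in the fit that shared the spread with the S2 cell groups (adjusted p = 0.252), and that of w held.

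The response was broad and mostly small. Of the 6732 tested genes 2888 were called (42.9%), with 1283 higher (19.1%) and 1605 lower (23.8%) after barc RNAi, and in none of the 2888 did the 2 RNAi values overlap the 2 control values. Of all tested genes, 34.8% had both RNAi values above both controls and 39.9% had both below. The median absolute change was 0.17 over all tested genes, and only 117 genes (1.74%) were called higher by 2-fold or more, with 66 (0.98%) lower by as much. Of the large rises, 56 of the 117 had a control mean under 1 FPKM and 8 reached an RNAi mean of 100 FPKM or more, while 25 of the 66 large falls had a control mean under 10 FPKM and 4 a control mean of at least 100 FPKM. The balance of directions depends on scaling, since the libraries' FPKM sums differ (693002 and 696874 after barc RNAi, 748074 and 741719 in controls). Rescaling each library to 1000000 gave a median change of 0.08 over all tested genes, against -0.015 with FPKM as deposited, and 2067 higher and 1041 lower calls. Of the tested genes 109 had a control mean under 1 FPKM and passed the filter on the mean only through the RNAi libraries, of which 87 were called higher, and 73 passed only through the controls, of which 45 were called lower, so that counts and medians over tested genes carry this filter. Sharing the spread with the S2 cell groups left 357 calls, 156 higher and 201 lower. It moved the higher count of 41 and the lower count of 42 of the 48 gene lists by more than 1.5 times. That fit takes in the spread among S2 libraries, made with another kit. Its losses therefore do not measure the spread between the neuroblast libraries alone.

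**Figure D1:**
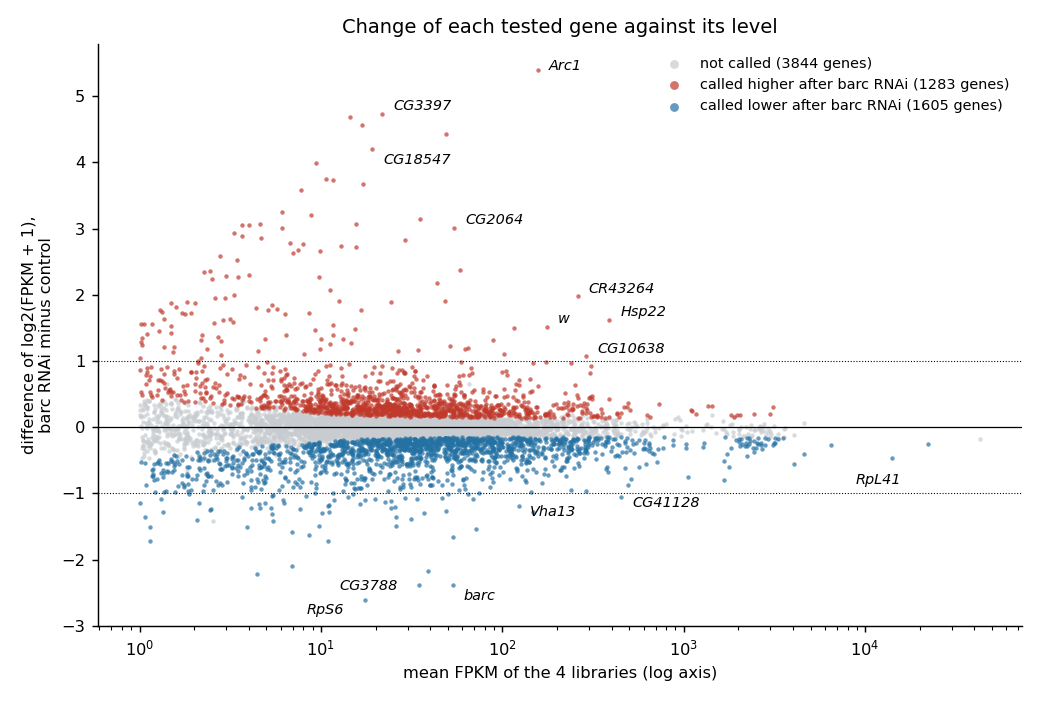
Change of each of the 6732 tested genes after barc RNAi (difference of log2(FPKM + 1), barc RNAi minus control) against its mean FPKM over the 4 libraries on a log axis, with called genes in red (1283 higher) and blue (1605 lower) and dotted lines at 2-fold. The large rises spread over low and middle levels, and the most abundant transcripts stay within a narrow band around 0.

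Both RNAi libraries moved the same way, but not by the same amount. The 117 genes with large rises had a median change of 2.00 in RNAi replicate 1 and 1.58 in RNAi replicate 2 against the control mean, and 112 of them were higher in replicate 1. The 66 genes with large falls had medians of -1.30 in replicate 1 and -1.14 in replicate 2, and 53 were lower in replicate 1. Residual barc was 15.1 FPKM in replicate 1 and 17.9 FPKM in replicate 2, so the library with less barc had the larger response in most of these genes, and with 2 libraries this order was not tested.

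**Figure D2:**
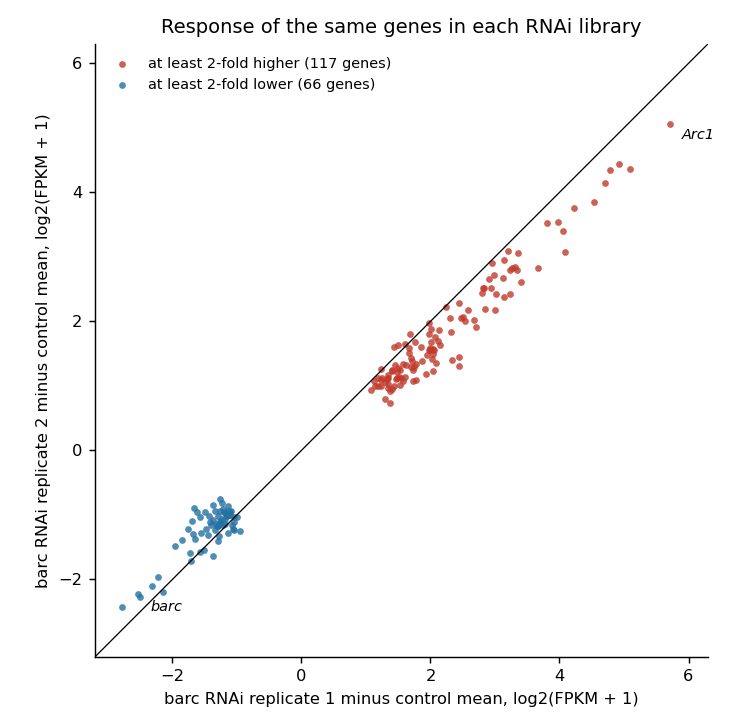
Change in barc RNAi replicate 1 (x axis) and replicate 2 (y axis), each against the control mean of log2(FPKM + 1), for the genes called at least 2-fold higher (red, 117) or lower (blue, 66), chosen on the mean of both; the line marks equal change. Most red points lie below the line and most blue points above it, so replicate 1 lies farther from the controls.

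Glutathione S-transferase and ABC transporter genes were mostly higher, while the counts of P450 and UDP-glycosyltransferase genes rested on rare members that passed the filter only where they were high. Glutathione S-transferases, which couple glutathione to reactive compounds, had 12 of 21 listed genes tested, of which 10 rose and 1 fell, against 19.1% higher and 23.8% lower over all tested genes. Cytochrome P450 oxidases had 9 of 82 tested, with 6 higher and 3 not called, and UDP-glycosyltransferases, which attach sugars to small molecules, had 3 of 18 tested, with 2 higher and 1 not called. ABC transporters, membrane pumps of many substrates, had 11 of 26 tested, with 7 higher, among them the transgene marker w described above, and 2 lower. Of these, 4 glutathione S-transferases, 4 P450s, 2 UDP-glycosyltransferases and 1 ABC transporter had a control mean under 1 FPKM and passed the filter only through the RNAi libraries, and each of them was called higher. The members with a control mean of at least 1 FPKM were 8 glutathione S-transferases (6 higher, 1 lower, median 0.80), 5 P450s (2 higher, median 0.13), 1 UDP-glycosyltransferase (0.05, not called) and 10 ABC transporters (6 higher, 2 lower, median 0.36), against a median of -0.015 over all tested genes. With the members that entered through the RNAi libraries alone the medians were 1.09, 0.53, 1.40 and 0.43, values that the filter raises. In the authors' deposited table, which holds 19, 63, 9 and 25 members of these lists, the list medians are 0.81, 0.26, 0.46 and 0.27. It calls 10, 10, 2 and 9 of these members higher, against 14.6% of all its 11035 genes, so the P450 share (10 of 63) is near that of all genes. With the spread shared with S2 cells 5, 2, 1 and 3 members were called higher, against 156 of all 6732 tested genes.

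The rises came partly as neighbours in gene clusters. In the GstE cluster of arm 2R, GstE7 had 20.02 and 13.5 FPKM in the RNAi libraries, against 2.83 and 2.42 FPKM in the controls (2.27 ± 0.16, adjusted p = 1.97e-05). Beside it GstE5 had 9.60 and 5.11 FPKM in the RNAi libraries, against 0.614 and 0.648 FPKM in the controls (2.30 ± 0.22, adjusted p = 1.19e-04), and GstE8 changed by 0.78 and GstE3 by 0.90. In the GstD cluster of arm 3R, GstD3 had 10.1 and 7.86 FPKM in the RNAi libraries, against 2.04 and 1.53 FPKM in the controls (1.84 ± 0.14, adjusted p = 3.15e-05). The most abundant member, GstD1, had 136 and 119.7 FPKM in the RNAi libraries, against 69.9 and 73.1 FPKM in the controls (0.83 ± 0.068, adjusted p = 5.00e-05), and GstD9, beside it and overlapping it, changed by 0.52. GstS1, a sigma-class enzyme, had 41.00 and 33.6 FPKM in the RNAi libraries, against 50.7 and 49.1 FPKM in the controls and was the 1 member that fell (-0.42 ± 0.086, adjusted p = 0.00512). With the spread shared with S2 cells the calls of GstE7, GstE5 and GstD3 held, and those of GstE8, GstE3, GstD1, GstD9 and GstS1 did not (adjusted p between 0.0778 and 0.667); the GstE3 call was also lost without control replicate 2 (adjusted p = 0.0697). Near-identical paralogs can share reads, so the split among neighbouring Gst genes is uncertain.

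Single transporters and conjugating enzymes mostly rose. The pump gene Mdr49, a counterpart of mammalian multidrug P-glycoprotein, had 18.7 and 10.6 FPKM in the RNAi libraries, against 1.18 and 1.27 FPKM in the controls (2.76 ± 0.21, adjusted p = 2.97e-05). It was near 1 FPKM in controls, and RNAi replicate 1 was the higher of the RNAi libraries. CG5853 fell among the ABC transporters, with 4.74 and 5.42 FPKM in the RNAi libraries, against 11.9 and 10.9 FPKM in the controls (-1.03 ± 0.092). Of the conjugating enzymes, Ugt86Di had 5.74 and 3.25 FPKM in the RNAi libraries, against 0.0615 and 0.0462 FPKM in the controls (2.35 ± 0.21, adjusted p = 8.83e-05), and its neighbour Ugt86Da changed by 1.40. Cyp12a4, a mitochondrial P450, had 2.62 and 2.07 FPKM in the RNAi libraries, against 0.249 and 0.181 FPKM in the controls (1.46 ± 0.17), while Cyp4p1 had 8.58 and 7.38 FPKM in the RNAi libraries, against 0.0781 and 0.0888 FPKM in the controls (3.05 ± 0.13, adjusted p = 1.46e-06). The calls of CG5853, Ugt86Da and Cyp12a4 were lost when the spread was shared with S2 cells (adjusted p = 0.124, 0.0638 and 0.418).

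Further large rises included some genes that encode oxidoreductases. CG3397 and CG18547, adjacent genes of the aldo-keto reductase family (arm 3R, 7808820 to 7810263 for CG3397), had almost no signal in controls. CG3397 had 53.7 and 32.02 FPKM in the RNAi libraries, against 0.513 and 0.700 FPKM in the controls (4.73 ± 0.20, adjusted p = 1.22e-06). CG18547 had 46.3 and 28.3 FPKM in the RNAi libraries, against 1.11 and 0.967 FPKM in the controls (4.19 ± 0.19, adjusted p = 1.48e-06). Their neighbour CG10005 changed by 1.56, so 3 genes in a row were at least 2-fold higher. Another aldo-keto reductase gene, CG10638 (arm 3L, 12491504 to 12494411), was already abundant, and had 414 and 372 FPKM in the RNAi libraries, against 185 and 188 FPKM in the controls (1.07 ± 0.060, adjusted p = 5.73e-06). CG2064, a short-chain dehydrogenase, had 112 and 82.6 FPKM in the RNAi libraries, against 11.3 and 10.9 FPKM in the controls (3.01 ± 0.12, adjusted p = 9.49e-07). CG31549, of the same family and named after its values were seen, had 113 and 84.6 FPKM in the RNAi libraries, against 18.3 and 17.7 FPKM in the controls (2.38 ± 0.11). In each of these genes the RNAi values lay clear of the controls and replicate 1 was the higher RNAi library. The call of CG10638 was lost when the spread was shared with S2 cells (adjusted p = 0.23).

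The redox list, of glutathione, thioredoxin and peroxidase genes, had more rises than falls but a median near 0. Of its 20 tested genes 8 rose and 3 fell (19.1% and 23.8% of all tested genes), with a median of -0.03. The split was 9 and 1 after rescaling to 1000000 (median 0.06) and 8 and 2 after quantile normalisation (median 0.05). Gclc, the catalytic subunit for glutathione synthesis, had 3.28 and 2.97 FPKM in the RNAi libraries, against 1.32 and 1.26 FPKM in the controls (0.85 ± 0.13). The peroxiredoxin genes diverged: Prx3 averaged 149.7 FPKM after barc RNAi and 109 FPKM in controls (0.45 ± 0.055), and Prx6005 averaged 95.5 FPKM after barc RNAi and 159.7 FPKM in controls (-0.74 ± 0.057). cnc, which encodes the factor CncC that drives many detoxification genes, rose slightly, with 17.5 and 17.9 FPKM in the RNAi libraries, against 14.99 and 14.5 FPKM in the controls (0.25 ± 0.064, adjusted p = 0.0145). Keap1, its inhibitor, had 5.55 and 5.33 FPKM in the RNAi libraries, against 5.77 and 5.38 FPKM in the controls and was not called (-0.03 ± 0.091). Sod, the cytosolic superoxide dismutase, averaged 555 FPKM after barc RNAi and 601 FPKM in controls and was not called. The calls of Gclc, Prx3, Prx6005 and cnc did not hold when the spread was shared with S2 cells, and that of cnc was also lost without control replicate 1 (adjusted p = 0.0626) or 2 (adjusted p = 0.0962).

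**Figure D3:**
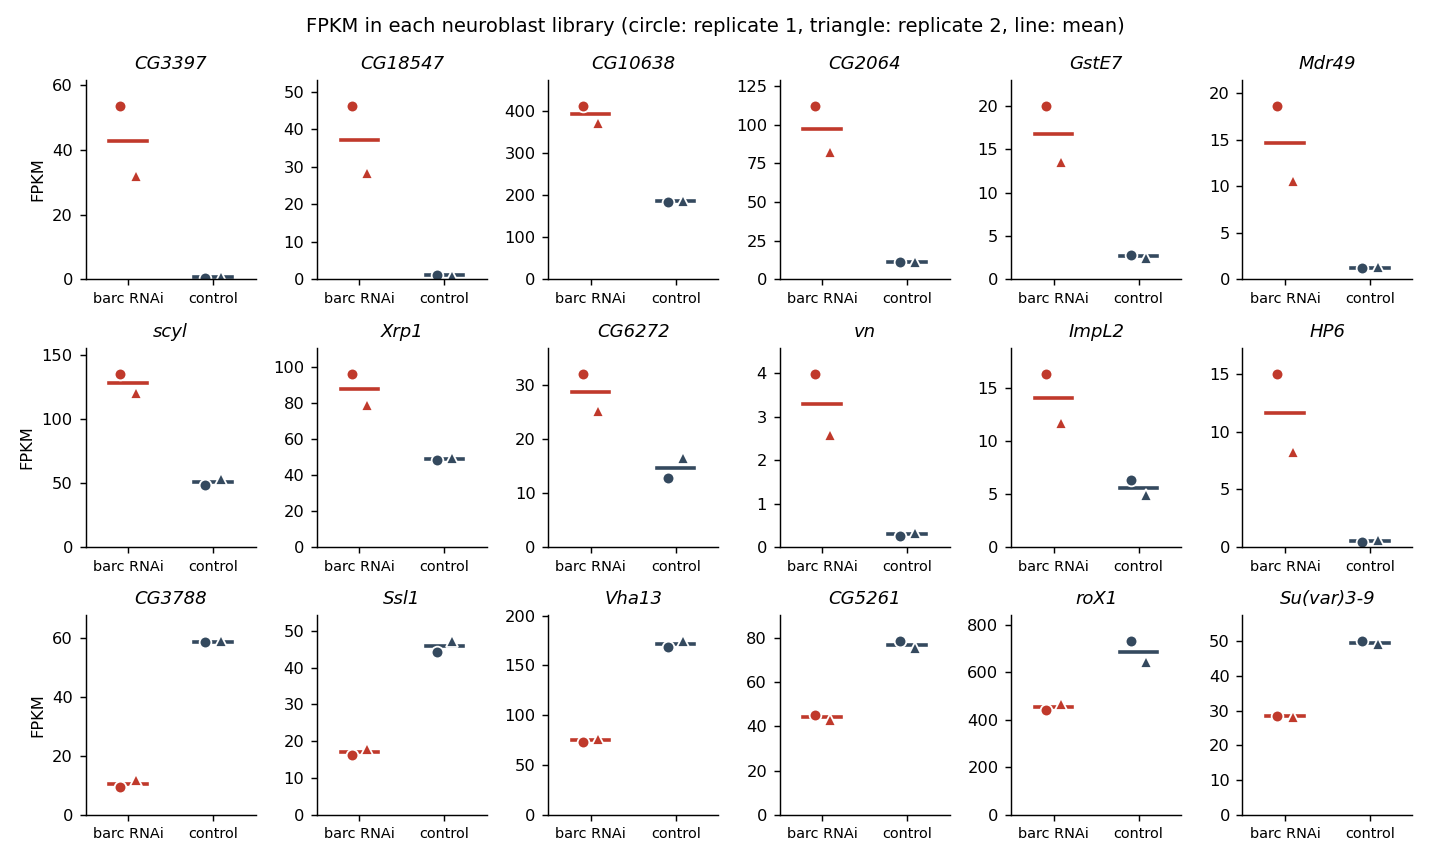
FPKM of 18 genes in each library, barc RNAi at left and control at right of each panel (circle, replicate 1; triangle, replicate 2; line, mean of 2), each y axis starting at 0. In every panel the 2 RNAi values lie on one side of the 2 control values; the first 12 genes are higher and the last 6 lower after barc RNAi.

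Some regulators of stress and growth control also changed. Xrp1, a bZIP transcription factor induced in stressed and outcompeted cells, had 96.2 and 78.6 FPKM in the RNAi libraries, against 48.2 and 49.1 FPKM in the controls (0.82 ± 0.086, adjusted p = 1.75e-04). CG6272, which encodes its dimer partner Irbp18, had 32.1 and 25.2 FPKM in the RNAi libraries, against 12.7 and 16.5 FPKM in the controls (0.93 ± 0.13, adjusted p = 7.79e-04). Both partners were thus higher, and of the 8 tested genes of this list 4 rose and 1 fell (median 0.12, against 19.1% higher and 23.8% lower over all tested genes), the others being Irbp (0.40) and Ku80 (0.20), which encode DNA end-binding proteins, and fwe (-0.22). In the ATF4 and amino acid stress list 8 of 12 tested genes rose and 1 fell (19.1% and 23.8% of all tested genes; median 0.24, at least 0.23 under each scaling). Among them scyl, a stress-induced inhibitor of TOR, had 135 and 120.1 FPKM in the RNAi libraries, against 48.00 and 53.3 FPKM in the controls (1.32 ± 0.074, adjusted p = 5.80e-06). Its relative chrb changed less (0.23). crc, which encodes the fly ATF4 itself, had 583 and 527 FPKM in the RNAi libraries, against 421 and 435 FPKM in the controls (0.37 ± 0.059, adjusted p = 0.00142). The eIF2 kinase genes Gcn2 (0.57 ± 0.063) and PEK (0.34 ± 0.053) and the pseudokinase gene trbl (0.60 ± 0.10) also rose. Thor, the 4E-BP gene and a known ATF4 target, averaged 11.1 FPKM after barc RNAi and 12.4 FPKM in controls and was not called. The ATF4 list's entry for asparagine synthetase was not matched, so asparagine-synthetase, which was called lower (-1.25), is missing from its counts and median. With the spread shared with S2 cells none of the called genes named from these 2 lists kept its call (limma adjusted p between 0.0846 and 0.956). Leaving out 1 library also ended the calls of fwe (without RNAi replicate 1 or control replicate 2, adjusted p = 0.109 and 0.193), Ku80 (without RNAi replicate 1 or either control, adjusted p between 0.0743 and 0.1) and chrb (without control replicate 1, adjusted p = 0.129), and that of fwe did not hold after rescaling to 1000000 (adjusted p = 0.176) or quantile normalisation (adjusted p = 0.0647).

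Enzymes of amino acid and one-carbon metabolism moved both ways. CG3011, serine hydroxymethyltransferase, had 18.6 and 18.7 FPKM in the RNAi libraries, against 39.6 and 32.4 FPKM in the controls (-0.90 ± 0.089, adjusted p = 1.29e-04). asparagine-synthetase, an ATF4 target in mammals, had 0.924 and 1.12 FPKM in the RNAi libraries, against 4.55 and 3.13 FPKM in the controls (-1.25 ± 0.16, adjusted p = 5.65e-04), and it overlaps chb, with which its reads could be shared. Cbs, cystathionine beta-synthase, had 1.95 and 2.21 FPKM in the RNAi libraries, against 6.24 and 6.06 FPKM in the controls (-1.22 ± 0.11) and was named after its values were seen. P5cr, a proline synthesis enzyme gene of the ATF4 list, averaged 55.6 FPKM after barc RNAi and 46.4 FPKM in controls (0.26 ± 0.053) and rose. Nmdmc, a mitochondrial folate enzyme, averaged 8.71 FPKM after barc RNAi and 9.36 FPKM in controls and was not called. Gdh, glutamate dehydrogenase, also named after its values were seen, had 143 and 138 FPKM in the RNAi libraries, against 69.7 and 60.2 FPKM in the controls (1.10 ± 0.071, adjusted p = 1.42e-05). With the spread shared with S2 cells, CG3011 (adjusted p = 0.56), asparagine-synthetase (adjusted p = 0.152) and P5cr (adjusted p = 0.745) were no longer called, and Cbs and Gdh were; the authors' deposited table does not call P5cr either (adjusted p = 0.146).

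Secreted factors and growth signalling showed single large changes within otherwise mixed lists. ImpL2, which encodes a secreted protein that binds insulin-like peptides and dampens insulin signalling, had 16.4 and 11.7 FPKM in the RNAi libraries, against 6.32 and 4.89 FPKM in the controls (1.18 ± 0.15, adjusted p = 5.03e-04). CG13624, the TOR-repressed transcription factor REPTOR, had 37.1 and 32.6 FPKM in the RNAi libraries, against 18.02 and 19.3 FPKM in the controls (0.87 ± 0.075, adjusted p = 6.82e-05). foxo, the transcription factor that insulin signalling restrains, had 5.91 and 7.67 FPKM in the RNAi libraries, against 10.8 and 12.7 FPKM in the controls (-0.71 ± 0.12, adjusted p = 0.00185). The insulin receptor gene InR (0.37) rose, while Rheb (-0.47), the activator of TOR, and mnd (-0.49), an amino acid transporter, fell. In all, 6 of 25 tested insulin and TOR genes rose and 7 fell (median 0.08), near the shares over all tested genes (19.1% and 23.8%), and after rescaling to 1000000 the split was 9 higher and 3 lower. Among the receptor tyrosine kinase ligands vn, the neuregulin-like ligand of Egfr, had 4.00 and 2.58 FPKM in the RNAi libraries, against 0.256 and 0.326 FPKM in the controls (1.71 ± 0.19, adjusted p = 2.11e-04). Besides vn and the large rise of Pvf2, no other of the 20 tested genes of that list rose. There were 5 falls, each by 0.31 or less on the log2 scale. Both vn and Pvf2 had a control mean under 1 FPKM and passed the filter only through the RNAi libraries. Of the 18 members with a control mean of at least 1 FPKM, 0 rose and 5 fell. Rescaling to 1000000 left 4 higher and the rest not called. The receptor of Pvf2, Pvr, was between 0.166 and 0.265 FPKM in the 4 libraries. In the Hippo list fj, a Golgi kinase gene, had 4.56 and 3.68 FPKM in the RNAi libraries, against 1.71 and 1.59 FPKM in the controls (0.95 ± 0.13, adjusted p = 6.79e-04), and 2 of 14 tested genes rose and 1 fell (4 and 0 after rescaling). Traf4, an adaptor of JNK signalling named after its values were seen, had 22.6 and 18.1 FPKM in the RNAi libraries, against 4.41 and 4.88 FPKM in the controls (1.91 ± 0.11). The calls of foxo, fj and Traf4 held with the spread shared with S2 cells, and those of ImpL2, CG13624, InR, Rheb, mnd and vn did not (adjusted p between 0.0828 and 0.891); the InR call was also lost without control replicate 1 (adjusted p = 0.0755).

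The JAK/STAT (8 tested, 2 higher), Wnt, Hedgehog and BMP (30 tested, 2 higher and 4 lower) and ecdysone lists (15 tested, 2 higher and 2 lower) had called shares of 26.7% or less, against 42.9% of all tested genes. After rescaling to 1000000 the splits were 4 higher and 0 lower for JAK/STAT, 6 and 3 for Wnt, Hedgehog and BMP, and 3 and 1 for ecdysone, so neither the balance nor the low share held for each list. Their medians lay between -0.01 and 0.11. Of the 2 ecdysone falls, 1 had an RNAi mean under 1 FPKM and passed the filter only through the controls. tkv, a BMP receptor gene, changed by -0.44 ± 0.068, and arr, a Wnt co-receptor gene, by 0.40 ± 0.092, and both lost their calls with the spread shared with S2 cells, that of arr also without control replicate 1 (adjusted p = 0.0848).

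Falls of 2-fold or more were fewer and fell on scattered functions. CG3788 (arm 2R, 18819558 to 18821208) had 9.32 and 11.8 FPKM in the RNAi libraries, against 58.6 and 58.9 FPKM in the controls (-2.38 ± 0.095, adjusted p = 9.49e-07), a change as large as that of barc. Ssl1, a core subunit of the transcription and DNA repair factor TFIIH, had 16.1 and 17.8 FPKM in the RNAi libraries, against 44.4 and 47.2 FPKM in the controls (-1.38 ± 0.068, adjusted p = 2.63e-06). On the same arm CG33170 had 78.5 and 93.1 FPKM in the RNAi libraries, against 208 and 209.6 FPKM in the controls (-1.28 ± 0.076, adjusted p = 7.99e-06). CG40472, annotated in the heterochromatin of arm 3L, had 36.7 and 35.9 FPKM in the RNAi libraries, against 109.8 and 104 FPKM in the controls (-1.53 ± 0.055, adjusted p = 5.89e-07). Each of these genes kept its call when any 1 library was left out and when the spread was shared with S2 cells. The heterochromatic gene CG41128, named after its values were seen, was among the most abundant large falls, with 294 and 296 FPKM in the RNAi libraries, against 601 and 620.4 FPKM in the controls (-1.05 ± 0.048), and lost its call with that shared spread (adjusted p = 0.415).

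A few genes that act on DNA or RNA had large changes, in both directions. slx1, the nuclease subunit that cuts branched DNA, had 2.03 and 3.39 FPKM in the RNAi libraries, against 7.78 and 8.25 FPKM in the controls (-1.30 ± 0.16, adjusted p = 3.91e-04), and it overlaps MED31. Hus1-like, a checkpoint clamp gene, had 16.8 and 20.1 FPKM in the RNAi libraries, against 40.2 and 39.5 FPKM in the controls (-1.07 ± 0.083). phr6-4, the photolyase for (6-4) photoproducts, had 15.8 and 14.2 FPKM in the RNAi libraries, against 36.5 and 35.4 FPKM in the controls (-1.21 ± 0.068). All 3 were lower in both RNAi libraries, whereas agt, which encodes a DNA alkyltransferase that repairs alkylated guanine, had 88.6 and 66.2 FPKM in the RNAi libraries, against 19.9 and 19.5 FPKM in the controls (1.91 ± 0.11, adjusted p = 8.37e-06) and rose. Rpp30, a protein subunit of the tRNA-trimming enzyme RNase P, had 12.8 and 15.8 FPKM in the RNAi libraries, against 35.1 and 34.2 FPKM in the controls (-1.23 ± 0.091). RNaseP:RNA, the RNA of the same enzyme, had 6.03 and 6.86 FPKM in the RNAi libraries, against 15.4 and 16.2 FPKM in the controls (-1.18 ± 0.083), although the authors' deposited table gives -0.46 for it with an adjusted p of 0.0501. The call of RNaseP:RNA was also lost with the spread shared with S2 cells (adjusted p = 0.241), and those of slx1, Hus1-like, phr6-4, agt and Rpp30 held. Except slx1, the genes of this paragraph were named after their values were seen.

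The proton pump of endosomes and lysosomes, the V-ATPase, had 20 of 33 listed genes tested, of which 2 rose and 7 fell (median -0.11, against 19.1% higher and 23.8% lower over all tested genes), and 7 also fell after rescaling to 1000000, where 3 rose. Vha13, a stalk subunit, had 73.4 and 76.6 FPKM in the RNAi libraries, against 169 and 174 FPKM in the controls (-1.18 ± 0.052, adjusted p = 1.48e-06). Vha100-2, a membrane-sector subunit, had 10.9 and 11.9 FPKM in the RNAi libraries, against 20.5 and 17.9 FPKM in the controls (-0.70 ± 0.083, adjusted p = 3.33e-04). VhaM9.7-b, a small membrane subunit, had 94.3 and 117 FPKM in the RNAi libraries, against 166 and 166 FPKM in the controls (-0.65 ± 0.089, adjusted p = 6.66e-04). Vha55, the nucleotide-binding B subunit, fell less (-0.33). Vha16-3, a rarely expressed proteolipid copy, rose (1.05 ± 0.22). It had 2.32 and 1.14 FPKM in the RNAi libraries, against 0.274 and 0.307 FPKM in the controls. It passed the filter only through the RNAi libraries, and without it 1 of 19 rose. The falls thus reached subunits of both the membrane sector and the peripheral stalk, and the summed level of the listed genes was 1128 and 1199 FPKM after barc RNAi, against 1426 and 1445 FPKM in controls. The Vha13 and Vha100-2 calls held with the spread shared with S2 cells and those of VhaM9.7-b (adjusted p = 0.334) and Vha55 (adjusted p = 0.238) did not. In the autophagy and lysosome list 6 of 21 tested genes rose and 3 fell (7 and 3 after rescaling), with Atg9, the lipid scramblase of early autophagosomes, at 0.43, ref(2)P, the fly p62, at 0.33 and CG10992, a cathepsin B-like protease, at -0.48; these 3 calls were lost with the shared spread, and that of ref(2)P also without control replicate 2 (adjusted p = 0.0538).

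Chromatin regulators showed small changes whose balance depended on the scaling. Of 20 tested Polycomb group genes 7 fell and 13 were not called (median -0.14), against 19.1% higher and 23.8% lower over all tested genes. After rescaling to 1000000 the median was -0.04, with 1 higher and 3 lower. esc, the WD40 subunit of the histone H3 lysine methyltransferase complex, had 25.1 and 26.1 FPKM in the RNAi libraries, against 38.7 and 36.8 FPKM in the controls (-0.54 ± 0.059, adjusted p = 2.19e-04). pho, a DNA-binding recruiter, averaged 47.3 FPKM after barc RNAi and 62.4 FPKM in controls (-0.39 ± 0.063). The catalytic subunit gene E(z) averaged 46.3 FPKM after barc RNAi and 47.6 FPKM in controls, and Pc and Su(z)12 likewise were not called. Of 22 tested trithorax and SWI/SNF genes 5 rose and 7 fell (7 higher and 3 lower after rescaling). ash2, a subunit of histone H3 lysine 4 methyltransferase complexes, had 108 and 113 FPKM in the RNAi libraries, against 163 and 156 FPKM in the controls (-0.52 ± 0.053, adjusted p = 1.56e-04), and wds of the same complexes averaged 98.4 FPKM after barc RNAi and 126 FPKM in controls (-0.35 ± 0.054). The remodeller subunit genes brm and osa were not called (-0.07 and -0.11). With the spread shared with S2 cells, esc, pho, ash2 and wds were no longer called (adjusted p between 0.135 and 0.407).

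Among heterochromatin and insulator genes 4 of 20 rose and 6 fell (median -0.13), near the shares over all tested genes (19.1% and 23.8%). The split was 4 and 3 after rescaling to 1000000 (median -0.03) and 5 and 4 after quantile normalisation. Without HP6, which passed the filter only through the RNAi libraries, 3 of 19 rose. HP6, which encodes a small relative of heterochromatin protein 1, had 15.02 and 8.21 FPKM in the RNAi libraries, against 0.403 and 0.632 FPKM in the controls (3.01 ± 0.23, adjusted p = 2.97e-05). It lies inside the very long gene dp (arm 2L, 4577719 to 4578201), and 3 further large rises, CG11929, CG15634 and CG3251, follow it as the next tested genes. CG3251 had 15.5 and 8.23 FPKM in the RNAi libraries, against 0.172 and 0.442 FPKM in the controls (3.25 ± 0.24, adjusted p = 2.92e-05). Su(var)3-9, the histone H3 lysine 9 methyltransferase, had 28.4 and 28.3 FPKM in the RNAi libraries, against 49.99 and 49.1 FPKM in the controls (-0.78 ± 0.054, adjusted p = 2.10e-05). It shares its start exons with eIF-2gamma, a translation initiation factor gene on the same strand, which had 247 and 247 FPKM in the RNAi libraries, against 195 and 187 FPKM in the controls (0.37 ± 0.049, adjusted p = 5.98e-04). The 2 products of this shared locus (arm 3R, 11083661 to 11089196) therefore moved in opposite directions, with the caveat that reads of their 3611 shared bases cannot be assigned from these tables. Su(var)205, heterochromatin protein 1 itself, averaged 796 FPKM after barc RNAi and 954 FPKM in controls (-0.26 ± 0.054), and mod(mdg4), a trans-spliced insulator gene, averaged 275 FPKM after barc RNAi and 384 FPKM in controls (-0.49 ± 0.063). The calls of HP6, CG3251 and Su(var)3-9 held with the spread shared with S2 cells, and those of eIF-2gamma, Su(var)205 and mod(mdg4) did not (adjusted p between 0.197 and 0.681).

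Genes on the X chromosome leaned lower. Of 1161 tested X-linked genes 10.8% were called higher and 27.9% lower, against 20.8% and 22.9% of the 5480 tested genes on arms 2L, 2R, 3L and 3R. The X median minus that of these arms was -0.09, -0.07, -0.05 and -0.04 in the 4 pairings of an RNAi with a control library. The same measure was -0.03 for RNAi replicate 1 minus RNAi replicate 2 and 0.0042 for control replicate 1 minus control replicate 2, so the lean exceeded the replicate differences in each pairing but was small. Among genes with a control mean of 10 to 200 FPKM the shares were 9.07% higher on the X, against 20.1% on the other arms, with 29.8% of the X genes lower. In males a ribonucleoprotein with the RNAs roX1 and roX2 raises transcription from the single X, and the sorted pools hold larvae of a sex that the labels do not give. roX1 had 439 and 467 FPKM in the RNAi libraries, against 729 and 642 FPKM in the controls (-0.60 ± 0.068, adjusted p = 2.72e-04). roX2 had 2.10 and 1.80 FPKM in the RNAi libraries, against 3.71 and 2.65 FPKM in the controls (-0.49 ± 0.15, adjusted p = 0.029), and its call was lost without control replicate 1 (adjusted p = 0.255) and in the authors' deposited table (adjusted p = 0.496). mof, the histone acetyltransferase of the complex, averaged 28.4 FPKM after barc RNAi and 32.8 FPKM in controls (-0.20 ± 0.065), a call lost after rescaling to 1000000 and without RNAi replicate 1 or either control. The other 5 of the 8 tested genes in this list were not called (list median -0.16), among them msl-1, msl-2, msl-3 and mle, and after rescaling 1 gene was higher and 2 lower. Sxl, the female switch gene, had 64.4 and 71.7 FPKM in the RNAi libraries, against 57.4 and 61.8 FPKM in the controls (0.19 ± 0.068) and was not called, whereas the authors' deposited table calls it higher (0.23). The calls of roX1, roX2 and mof were lost with the spread shared with S2 cells (adjusted p between 0.508 and 0.936), and whether the sex ratio of the pools differed was not tested.

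Short genes and abundant genes also leaned lower. Of 736 tested genes spanning under 1 kb, 14.3% were called higher and 36.3% lower, against 19.6% and 22.3% of the 5996 longer genes, and the shares were 14.5% and 35.4% once ribosomal protein genes were left out. Of 526 genes with a control mean over 200 FPKM, 12.4% were called higher and 42.6% lower. Genes with 8 or more introns leaned the other way, with 25.0% of 785 called higher and 16.9% lower, and of 576 genes without introns 23.8% were higher and 18.2% lower. The span, intron and level classes share genes, and their parts were not separated. Shares by span were not computed after rescaling or in the authors' deposited table. Some genes under 1 kb fell less in that table, such as CG11985 (-0.65 in FPKM, -0.06 there) and mRpL34 (-0.50 in FPKM, -0.18 there). Both are among the 10 genes set against that table below, and the rises among those 10 were of genes over 1 kb.

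**Figure D4:**
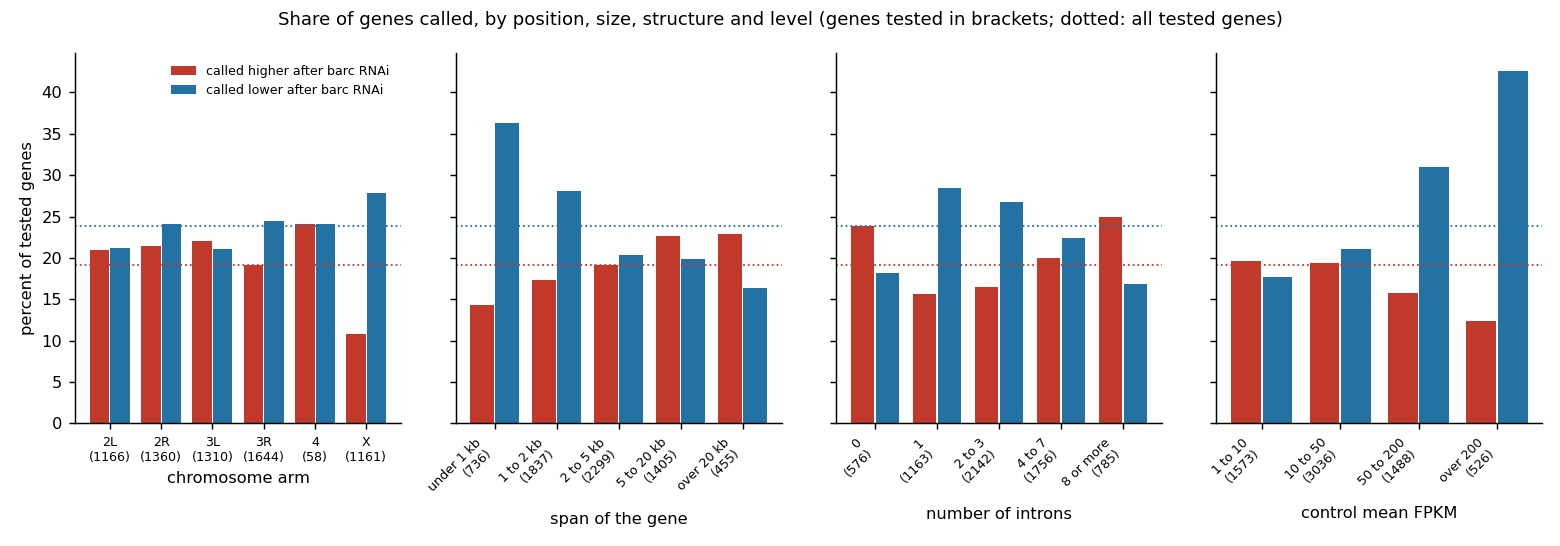
Percent of tested genes called higher (red, left bar) or lower (blue, right bar) after barc RNAi, by chromosome arm, span, number of introns and control mean FPKM, with the shares over all tested genes as dotted lines (19.1% and 23.8%). The X, genes under 1 kb and genes over 200 FPKM show the widest gap between falls and rises, with FPKM as deposited. The level classes were set on the control mean, which is also subtracted in the change. Genes with a control mean under 1 FPKM are left out, since they could enter only by being higher after barc RNAi.

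Regional transcription factors, which give neuroblasts their spatial identity, held falls but no rises with FPKM as deposited. Of 26 tested 6 fell and 20 were not called (median -0.07), against 19.1% higher and 23.8% lower over all tested genes. Rescaling to 1000000 gave 3 higher and 2 lower, and the authors' deposited table calls 2 of its 32 members higher and 6 lower. D, a SoxB factor, had 8.48 and 7.79 FPKM in the RNAi libraries, against 12.6 and 11.1 FPKM in the controls (-0.49 ± 0.086, adjusted p = 0.00231). tll, a nuclear receptor gene, had 14.4 and 15.1 FPKM in the RNAi libraries, against 18.4 and 19.1 FPKM in the controls (-0.33 ± 0.066, adjusted p = 0.00439). These 2 calls held when any 1 library was left out, whereas inv (-0.27) lost its call without RNAi replicate 1 or either control (adjusted p between 0.0813 and 0.178) and gsb (-0.25) without RNAi replicate 2 or either control (adjusted p between 0.0733 and 0.259), and both after rescaling (adjusted p = 0.118 and 0.152). Of these 4, D and tll also kept their calls with the spread shared with S2 cells. The Hox gene Antp averaged 13.4 FPKM after barc RNAi and 11.8 FPKM in controls and was not called. Called genes made up 23.1% of this list, against 42.9% of all tested genes.

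Adhesion, guidance and channel genes moved both ways. Of 23 tested axon guidance genes 8 rose and 3 fell (median 0.12), against 19.1% higher and 23.8% lower over all tested genes, and after rescaling to 1000000 11 were higher and 1 lower. Fas3, a homophilic adhesion molecule, had 3.16 and 4.27 FPKM in the RNAi libraries, against 7.59 and 8.50 FPKM in the controls (-0.95 ± 0.13, adjusted p = 5.72e-04). CadN, the neural cadherin, averaged 1.92 FPKM after barc RNAi and 0.968 FPKM in controls (0.57 ± 0.15), a call lost without control replicate 1 (adjusted p = 0.0955) or 2 (adjusted p = 0.0695). Abl, a cytoplasmic tyrosine kinase gene of axon guidance, had 10.1 and 9.81 FPKM in the RNAi libraries, against 7.13 and 7.51 FPKM in the controls (0.40 ± 0.078, adjusted p = 0.00389). CadN passed the filter only through the RNAi libraries, and without it 7 of 22 guidance genes rose. Of 7 tested ion channel genes of 28 listed, 1 rose and 4 fell (median -0.35), with 1 and 2 after rescaling. Of these 4 falls, 1 had an RNAi mean under 1 FPKM and passed the filter only through the controls. GluRIIA, a glutamate receptor subunit, had 0.797 and 1.20 FPKM in the RNAi libraries, against 2.87 and 2.81 FPKM in the controls (-0.95 ± 0.15, adjusted p = 0.00135), and cac, the voltage-gated calcium channel of synapses, had 5.67 and 4.78 FPKM in the RNAi libraries, against 3.03 and 2.87 FPKM in the controls (0.65 ± 0.11, adjusted p = 0.00203). The calls of CadN, GluRIIA and cac held with the spread shared with S2 cells, and those of Fas3 (adjusted p = 0.27) and Abl (adjusted p = 0.099) did not. The summed neuronal marker level, which includes cac, rose and the summed glial marker level fell, as given above. The part of such admixture in the changes of these genes was not tested.

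Genes best known from the germline, present at low levels in these somatic cells, moved both ways. Of 24 tested piRNA and germline genes 6 rose and 9 fell (median -0.01), against 19.1% higher and 23.8% lower over all tested genes, and after rescaling to 1000000 10 were higher and 8 lower. bam, the germline differentiation factor, had 5.95 and 6.97 FPKM in the RNAi libraries, against 3.53 and 2.94 FPKM in the controls (0.82 ± 0.12, adjusted p = 7.79e-04). bgcn, its partner, had 2.92 and 2.53 FPKM in the RNAi libraries, against 1.26 and 0.938 FPKM in the controls (0.83 ± 0.15, adjusted p = 0.00239), and shares 980 bases on the same strand with wibg, which averaged 72.2 FPKM after barc RNAi and 82.8 FPKM in controls and was called lower. qin, a piRNA pathway gene, had 1.84 and 1.55 FPKM in the RNAi libraries, against 0.479 and 0.534 FPKM in the controls (0.84 ± 0.16, adjusted p = 0.00348). It passed the filter only through the RNAi libraries, and without it 5 of 23 rose. The pair bam and bgcn thus rose together, each by less than 1 on the log2 scale. BoYb (0.72) and aub (0.50) were also higher, and mael (-0.53) and CG9754 (-0.51) lower. Within the Dicer and Argonaute list, AGO2, the siRNA effector, averaged 48.9 FPKM after barc RNAi and 62.6 FPKM in controls (-0.35 ± 0.053), pasha, a partner of Drosha, averaged 9.82 FPKM after barc RNAi and 13.5 FPKM in controls (-0.42 ± 0.070), and blanks, a double-stranded RNA binding protein gene, had 7.69 and 6.49 FPKM in the RNAi libraries, against 3.72 and 3.45 FPKM in the controls (0.82 ± 0.11). bam, qin and blanks kept their calls under each single omission and with the spread shared with S2 cells, while the other called genes named here lost theirs with that shared spread (adjusted p between 0.0701 and 0.886). Without control replicate 2 the calls of mael (adjusted p = 0.0592) and aub (adjusted p = 0.0683) were lost too, and that of wibg without RNAi replicate 1 (adjusted p = 0.0713), without control replicate 1 (adjusted p = 0.114) and after rescaling (adjusted p = 0.159).

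Genes of transcription and RNA metabolism were called about as often as genes in general. Of 25 tested genes of cleavage, polyadenylation and export 6 rose and 6 fell (median 0.04), a called share of 48.0%, against 42.9% of all tested genes. The falls included 2 subunits of the THO complex, which couples transcription to export: tho2 had 46.7 and 47.3 FPKM in the RNAi libraries, against 71.7 and 69.9 FPKM in the controls (-0.58 ± 0.052, adjusted p = 8.37e-05). Hpr1 had 28.3 and 30.4 FPKM in the RNAi libraries, against 41.9 and 39.7 FPKM in the controls (-0.46 ± 0.062, adjusted p = 6.38e-04). The export adaptor gene Ref1 averaged 239 FPKM after barc RNAi and 329 FPKM in controls (-0.46 ± 0.048), while thoc5 (0.31) and thoc6 (0.24), further THO subunits, were higher. After rescaling to 1000000 the list had 11 higher and 4 lower. Of 24 tested RNA decay genes 3 rose and 6 fell, and after rescaling 9 were higher and 4 lower. pcm, the cytoplasmic 5′ to 3′ exonuclease, had 23.6 and 23.7 FPKM in the RNAi libraries, against 37.1 and 34.9 FPKM in the controls (-0.59 ± 0.060, adjusted p = 1.53e-04), Rrp4 of the exosome averaged 141 FPKM after barc RNAi and 188 FPKM in controls (-0.41 ± 0.053), and Pop2, a deadenylase, averaged 123 FPKM after barc RNAi and 88.5 FPKM in controls (0.48 ± 0.058). The Mediator (28 tested, 8 higher and 4 lower), TFIID and RNA polymerase II (33 tested, 7 and 6) and Integrator lists (13 tested, 5 and 2) had medians between -0.04 and 0.08; after rescaling the splits were 10 and 1, 8 and 4, and 7 and 0. None of the calls of tho2, Hpr1, Ref1, thoc5, thoc6, pcm, Rrp4 and Pop2 held with the spread shared with S2 cells (limma adjusted p between 0.0643 and 0.61), and that of thoc6 was also lost without control replicate 2 (adjusted p = 0.054).

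Of 21 tested aminoacyl-tRNA synthetase genes 9 rose and 3 fell (median 0.12), and of 35 tested translation factors 10 rose and 6 fell (median 0.02), against 19.1% higher and 23.8% lower over all tested genes. Of the 6 falls among the factors, 1 had an RNAi mean under 1 FPKM and passed the filter only through the controls. After rescaling to 1000000 the synthetases had 12 higher and 1 lower and the factors 16 and 5, while after median centring the factors had 7 and 6 and they had 6 and 5 in the authors' deposited table. Aats-met, which charges methionine, had 20.9 and 18.7 FPKM in the RNAi libraries, against 12.7 and 12.2 FPKM in the controls (0.63 ± 0.075, adjusted p = 3.40e-04). Aats-tyr, which charges tyrosine, had 108 and 104 FPKM in the RNAi libraries, against 76.9 and 74.3 FPKM in the controls (0.48 ± 0.052, adjusted p = 2.17e-04). eIF6, which keeps the large ribosomal subunit from joining early, had 196 and 184 FPKM in the RNAi libraries, against 119.8 and 125 FPKM in the controls (0.63 ± 0.055, adjusted p = 6.77e-05). These 3 genes moved by about the same amount in both RNAi libraries. The chaperonin and prefoldin list had 3 of 14 tested genes higher and 3 lower, with 6 and 1 after rescaling and 5 and 3 after quantile normalisation. Nuclear pore and transport genes had 7 of 28 tested higher and 3 lower (13 and 2 after rescaling), led by Nup133 with 95.7 FPKM after barc RNAi and 69.4 FPKM in controls (0.46 ± 0.059). Vesicle coat genes had 4 of 17 tested higher and 5 lower (7 and 5 after rescaling), and Rab genes had 1 of 20 higher, RabX6 (0.66 ± 0.089), and 4 lower (2 and 4 after rescaling). Of 24 tested tubulin and actin genes 4 rose and 5 fell, a balance that turned to 8 higher and 2 lower after rescaling and 7 and 3 after quantile normalisation, with gammaTub23C, the microtubule nucleator of mitotic centrosomes, at 105 FPKM after barc RNAi and 149 FPKM in controls (-0.50 ± 0.051, adjusted p = 1.58e-04) and Act5C, a cytoplasmic actin, at 1618 FPKM after barc RNAi and 2005 FPKM in controls (-0.31 ± 0.051). Of the called genes named here RabX6 alone kept its call with the spread shared with S2 cells, the others having adjusted p between 0.0511 and 0.709.

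Of 71 tested genes of the mitochondrial ribosome 14 rose and 19 fell (median -0.02), near the shares over all tested genes (46.5% called, against 42.9%), and after rescaling to 1000000 23 were higher and 9 lower. mRpS21 had 92.8 and 100.1 FPKM in the RNAi libraries, against 194 and 189 FPKM in the controls (-0.98 ± 0.055, adjusted p = 5.91e-06) and mRpL40 had 36.3 and 44.7 FPKM in the RNAi libraries, against 63.6 and 69.95 FPKM in the controls (-0.71 ± 0.094, adjusted p = 5.47e-04). mRpL34 averaged 114 FPKM after barc RNAi and 161 FPKM in controls (-0.50 ± 0.063), but the authors' deposited table gives -0.18 for it with an adjusted p of 0.0837. Lon, the matrix protease, had 54.5 and 47.6 FPKM in the RNAi libraries, against 33.3 and 32.4 FPKM in the controls (0.62 ± 0.071, adjusted p = 2.83e-04), while TFAM, the packaging factor of mitochondrial DNA, averaged 109 FPKM after barc RNAi and 148 FPKM in controls (-0.43 ± 0.055) and sesB, the ADP/ATP carrier, averaged 593 FPKM after barc RNAi and 787 FPKM in controls (-0.41 ± 0.050). Enzymes that act on pyruvate moved both ways. CG5261, the acetyltransferase of pyruvate dehydrogenase, had 45.1 and 43.1 FPKM in the RNAi libraries, against 78.4 and 75.2 FPKM in the controls (-0.79 ± 0.056, adjusted p = 2.31e-05). l(1)G0334, its E1 alpha subunit, had 9.08 and 8.88 FPKM in the RNAi libraries, against 15.7 and 14.7 FPKM in the controls (-0.70 ± 0.072, adjusted p = 1.65e-04). CG11876, the E1 beta subunit, averaged 224 FPKM after barc RNAi and 211 FPKM in controls and was not called, and CG7430, the E3 subunit, averaged 89.5 FPKM after barc RNAi and 78.7 FPKM in controls (0.18 ± 0.055) and rose, a call lost without control replicate 2 or either RNAi library (adjusted p between 0.0506 and 0.149). CG1516, pyruvate carboxylase, had 49.5 and 55.1 FPKM in the RNAi libraries, against 82.3 and 80.4 FPKM in the controls (-0.63 ± 0.063, adjusted p = 1.41e-04). The TCA cycle list held 21 tested genes with 6 higher and 6 lower (9 and 6 after rescaling). skap, a succinyl-CoA synthetase subunit, averaged 51.2 FPKM after barc RNAi and 32.9 FPKM in controls (0.62 ± 0.064), and the succinate dehydrogenase subunits SdhB (-0.43) and SdhC (-0.32) fell. CG5261 and skap kept their calls with the spread shared with S2 cells, and the other called genes named here did not (adjusted p between 0.076 and 0.806).

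Of 20 tested fatty acid and sterol genes 5 rose and 3 fell, against 19.1% higher and 23.8% lower over all tested genes, and 7 and 3 after rescaling to 1000000. Of the 3 falls, 1 had an RNAi mean under 1 FPKM and passed the filter only through the controls. whd, carnitine palmitoyltransferase, had 25.3 and 24.8 FPKM in the RNAi libraries, against 36.8 and 37.6 FPKM in the controls (-0.55 ± 0.057, adjusted p = 1.59e-04). Lsd-2, a lipid droplet perilipin, had 25.7 and 29.02 FPKM in the RNAi libraries, against 38.9 and 41.2 FPKM in the controls (-0.54 ± 0.071, adjusted p = 5.88e-04). Both calls held under each single omission and with the spread shared with S2 cells. Of 24 tested nucleotide and one-carbon genes 6 rose and 9 fell (median -0.10), and after rescaling 6 were higher and 5 lower (median -0.0038). Dhod, of pyrimidine synthesis, averaged 50.98 FPKM after barc RNAi and 77.4 FPKM in controls (-0.59 ± 0.063). The ribonucleotide reductase genes RnrL (0.32) and RnrS (0.26) rose. Of 18 tested solute carriers 6 rose and 4 fell, as after rescaling. A riser among them passed the filter only through the RNAi libraries, and without it 5 of 17 rose. Nhe2, a sodium and proton exchanger, had 3.51 and 3.03 FPKM in the RNAi libraries, against 1.38 and 1.10 FPKM in the controls (0.93 ± 0.14, adjusted p = 9.98e-04), and CG4726 averaged 11.4 FPKM after barc RNAi and 4.83 FPKM in controls (1.11 ± 0.17). Tret1-1, a trehalose transporter, averaged 33.4 FPKM after barc RNAi and 20.9 FPKM in controls (0.65 ± 0.074), and Ncc69, a sodium, potassium and chloride cotransporter, averaged 45.2 FPKM after barc RNAi and 69.8 FPKM in controls (-0.62 ± 0.055). The calls of Dhod, RnrL, RnrS, Nhe2, CG4726, Tret1-1 and Ncc69 were lost with the shared spread (adjusted p between 0.124 and 0.922).

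**Figure D5:**
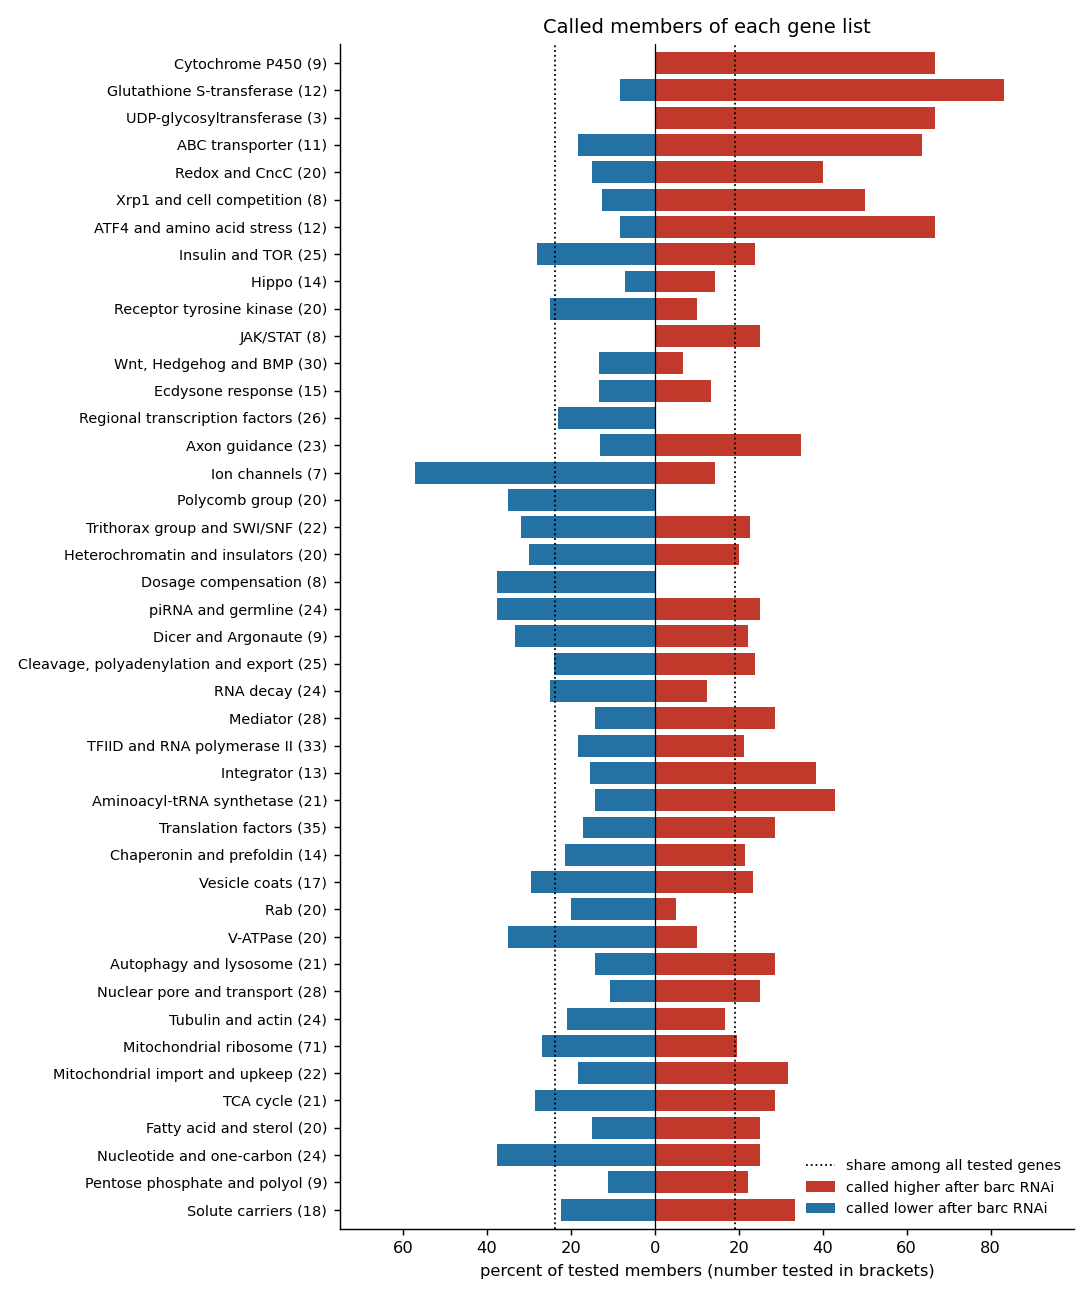
Percent of tested members called lower (blue, leftwards) and higher (red, rightwards) after barc RNAi for 43 gene lists, number tested in brackets, with the shares over all tested genes as dotted lines (23.8% lower, 19.1% higher). Glutathione S-transferases, P450s, UDP-glycosyltransferases, ABC transporters and ATF4-related genes show the longest red bars, but the bars count 4, 4, 2 and 1 members of the first 4 lists that passed the filter only by being higher after barc RNAi, without which 2 of 5 P450s and no UDP-glycosyltransferase were called higher; Polycomb, dosage compensation and regional factor genes show blue bars alone, although 1, 1 and 3 of their members were called higher after rescaling to 1000000.

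Counted in FPKM rather than in fold, the largest gains and losses lay in abundant transcripts. CR43283, a non-coding RNA, had 3468 and 3446 FPKM in the RNAi libraries, against 2716 and 2863 FPKM in the controls (0.31 ± 0.054, adjusted p = 0.00214). CR43264, a short non-coding RNA on the X, had 416 and 415 FPKM in the RNAi libraries, against 102 and 108 FPKM in the controls (1.97 ± 0.051, adjusted p = 2.47e-07), a large change for so abundant a transcript, and it overlaps CG15765. RpL41, a very short ribosomal protein gene, had 11721 and 11902 FPKM in the RNAi libraries, against 16017 and 16733 FPKM in the controls (-0.47 ± 0.059, adjusted p = 4.43e-04). Quantile normalisation set its change to exactly 0, so the loss of the call there does not test it. RpL39 had 3399.7 and 3117 FPKM in the RNAi libraries, against 5072 and 4559 FPKM in the controls (-0.56 ± 0.070, adjusted p = 4.25e-04). RpS14a had 1179 and 1272 FPKM in the RNAi libraries, against 2195 and 2062 FPKM in the controls (-0.80 ± 0.059, adjusted p = 2.92e-05). RpL22, in contrast, averaged 1517 FPKM after barc RNAi and 1213 FPKM in controls (0.32 ± 0.050), and Rack1, a ribosome-bound scaffold gene, averaged 1592 FPKM after barc RNAi and 1274 FPKM in controls (0.32 ± 0.051). Of the 15 largest losses of mean FPKM 13 were ribosomal protein genes, and ribosomal protein genes were also among the 15 largest gains, so both directions held members of the same machine. None of the calls named here held with the spread shared with S2 cells (limma adjusted p between 0.0582 and 0.781). The assignment of reads among short and near-identical ribosomal genes is uncertain.

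Some neighbouring genes rose together. Among the tested genes in map order there were 13 runs of adjacent genes that rose 2-fold or more, holding 32 of the 117. There were 2 runs with 4 of the 66 that fell by as much. Adjacent means without another tested gene between, over up to 221663 bases for scyl and Vha16-3. Of the 117 risers 56 had a control mean under 1 FPKM and could enter only by being high, so the 13 and 2 runs cannot be compared. The number of runs to be had without any link between neighbours was not computed. Several runs are families of related genes, namely GstE5 with GstE6 and GstE7, GstD3 with GstD5 and GstD6, Ugt86Di with Ugt86Da, Cyp4p2 with Cyp4p1, and Arc1 with Arc2. Arc2 had 15.2 and 12.1 FPKM in the RNAi libraries, against 1.27 and 1.29 FPKM in the controls (2.67 ± 0.12, adjusted p = 1.48e-06). In another run the gustatory receptor genes Gr59c and Gr59d followed the ribosomal protein copy RpL37b. Gr59d had 8.60 and 6.11 FPKM in the RNAi libraries and was listed at 0 in both controls. Gr59c had 5.06 and 4.44 FPKM in the RNAi libraries, against 0.254 and 0 FPKM in the controls, and RpL37b had 7.52 and 5.33 FPKM in the RNAi libraries, against 0.499 and 0.558 FPKM in the controls. All 3 were under 1 FPKM or listed at 0 in controls, and paralogous reads cannot be separated from these tables. Among the falls, Mgstl, a microsomal glutathione transferase, had 2.79 and 4.46 FPKM in the RNAi libraries, against 8.39 and 9.19 FPKM in the controls (-1.10 ± 0.16) and lies beside Cbs. The runs were named after their values were seen.

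Overlapping genes limit what can be assigned to a locus, because the strand setting of the authors' counting is not given in the sources used here. Of the tested genes 2070 overlapped another tested gene, in 1122 pairs. Both members were called in the same direction in 26 pairs on the same strand, 91 on opposite strands and 7 without a strand in the annotation, and in opposite directions in 19, 100 and 10. The widest opposite gap was that between hig and the P450 genes inside it on the other strand: hig, a secreted protein of the synaptic cleft, had 26.5 and 31.3 FPKM in the RNAi libraries, against 52.3 and 54.4 FPKM in the controls (-0.87 ± 0.078, adjusted p = 8.37e-05), while Cyp4p2 and Cyp4p1 within it changed by 4.57 and 3.05. A same-strand case was ctrip, a ubiquitin ligase gene, with 104 FPKM after barc RNAi and 82.05 FPKM in controls (0.33 ± 0.065), around Hus1-like, which changed by -1.07. vas, which changed by -2.10, encloses vig, which averaged 154 FPKM after barc RNAi and 130.04 FPKM in controls (0.25 ± 0.071). The calls of ctrip and vig were lost with the spread shared with S2 cells (adjusted p = 0.801 and 0.796), and that of vig also without control replicate 1 (adjusted p = 0.139).

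Calls from FPKM were set beside the authors' deposited table of the same 4 libraries, whose ratio was turned to barc RNAi over control. Of the 2888 called genes 2855 are in that table, 2381 were called there too, and 2377 of these in the same direction. The authors' deposited table itself calls 1608 genes higher (14.6% of 11035) and 1493 lower (13.5%). Among 5040 tested genes with a mean of at least 10 FPKM, 4941 had FPKM and table changes within 0.25 of each other. There were 10 genes whose FPKM moved by at least 0.5 with a call while the authors' deposited table gives less than 0.25. The widest of these 10 was mus201, a repair endonuclease gene, with 30.03 and 24.9 FPKM in the RNAi libraries, against 14.2 and 15.99 FPKM in the controls. Its change was 0.82 ± 0.095, a call lost with the spread shared with S2 cells. The authors' deposited table gives -0.19 for mus201, on mean signals of 2.80 after barc RNAi and 3.20 in controls. CG11985 likewise had 160.1 and 168 FPKM in the RNAi libraries, against 244 and 272 FPKM in the controls (-0.65 ± 0.062), where the authors' deposited table gives -0.06, and its call too was lost with that shared spread (adjusted p = 0.141). The limit of 0.25 leaves out wider cases. RpS6, among the 30 largest falls of FPKM on the log2 scale and there ahead of CG3788, changed by only -0.34 in the authors' deposited table. Its mean signals in that table were 65471 after barc RNAi and 83031 in controls. For these genes the 2 ways of counting did not give the same change, and neither was checked against reads.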

How the data were processed

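Levels are gene FPKM, deposited by the authors per library with a status and a confidence interval. Per the submitters' processing notes the tools included Cufflinks 1.3.0, DESeq, HTSeq, TopHat 1.4.1 and BWA 0.6.1, with no role stated. Genome build, annotation and the strand setting of the counting: not given in the sources used here. Coordinates are those of the deposited files. The authors' deposited comparison table of these 4 libraries gives mean signals (counts divided by size factors, per its column names), their ratio (fold) and log2 ratio, control over barc RNAi, and p-values; the log2 ratio was turned to barc RNAi over control. The S2 cell comparison table was not used.

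Genes of status OK in all 4 libraries with a mean of at least 1 FPKM were tested on log2(FPKM + 1) by limma 3.58.1 with a mean-variance trend (R 4.3.3), with Benjamini-Hochberg adjustment over 6732 genes. limma compared 2 libraries with 2, and the same steps were tested on simulated data. The depth per library was estimated from the deposited confidence intervals. Tables and plots were made with Python 3.11.15, pandas 2.3.3 and matplotlib 3.10.9. Introns and strands were taken from an annotation of genome release 6, matched by gene identifier and used for no coordinates.

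The genes and lists were chosen with earlier results of these data known. Named genes were the 30 largest rises and falls on the log2 scale and the 15 largest gains and losses of FPKM among called genes whose groups did not overlap, the 4 largest changes of each list, further listed genes where a role is described, and genes that the genotype touches; some of these were left out. Other named genes, among them those of neighbour runs and overlaps, w and the genes set against the authors' table, were chosen after their values were seen. The 48 lists matched 1137 genes, of which 861 were tested; 10 entries were not matched, and 23 genes stand on more than 1 list. Alternatives changed the pseudocount, the filters, the scaling, the variance model, the samples in the fit, the block, single libraries and the source of the values.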

Additional observations from a re-analysis of the deposited data

How the results depend on the processing

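Among the 316 named called genes 1 changed sign, mus201 in the authors' deposited table (-0.19), and no other did under any alternative. The count of 2888 calls was 2892 with a pseudocount of 0.1, 2861 with 5, 2388 without a filter on the mean, 2537 with a mean of at least 5 FPKM and 2507 without the trend. Rescaling to 1000000 gave 2067 higher and 1041 lower calls (66.5% higher, against 44.4%), median centring 1144 and 1680, and quantile normalisation 1341 and 1433. A single fit with the S2 cell groups gave 357 calls, 156 higher and 201 lower, and 218 of 316 named called genes lost their call. Leaving out 1 library at a time gave 1791 to 2924 calls, 757 to 1278 higher and 1034 to 1646 lower; the calls were 1791 without control replicate 1 and 1844 without control replicate 2. Genes at least 2-fold higher then numbered 108 to 143 and at least 2-fold lower 56 to 104, with 104 without RNAi replicate 2. The lone library of a group is there assumed to vary like the other group. The 2-fold counts were 129 lower with a pseudocount of 0.1, 63 higher and 22 lower with 5, 61 higher with a mean of at least 5 FPKM, and 419 higher and 193 lower in the authors' deposited table. The cause of these shifts was not tested. Libraries with the same replicate number deviated with a correlation of 0.0673 over 6732 genes and 2 pairs, so the numbers were not taken to pair the libraries; with the replicate block 3158 genes were called, 1398 higher and 1760 lower, and no named call was lost. Replicates differed by more than counting error (chi-square per degree of freedom 33.0 in the RNAi pair and 13.6 in the control pair), and FPKM changes near 1 FPKM are limited by depth.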

Other observations

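Besides Gr59d, a few genes were listed at 0 throughout a group, so no fold is given for them. CG43182 had 6.71 and 6.51 FPKM in the RNAi libraries and was listed at 0 in both controls. Spn47C, a serpin gene, had 2.82 and 1.27 FPKM after barc RNAi, and CR42742, a non-coding RNA, had 4.46 and 1.49 FPKM, both listed at 0 in the controls. CG34430 was listed at 0 in both RNAi libraries, against 2.51 and 2.06 FPKM in the controls. These 4 genes were named after their values were seen.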
